A study of Rattus norvegicus with 24 samples.

Results

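The exposure effect common to 4 organs of the rat was examined across liver, brain, thymus and spleen. All 24 of the 24 libraries entered, and membership follows from the study design and from no measured value. The animals were Sprague-Dawley rats aged 7 months. They fell into an exposed group, labelled SAM-exposed, and a control group, labelled Sham, with 3 libraries of each in every tissue. The series title speaks of exposure to PCBs (polychlorinated biphenyls), and the labels name no other agent, allele, dose or duration and do not spell out SAM. The exposed group is therefore called SAM and the controls sham. Animal numbers recur between tissues: SAM 1 and 3 and sham 15 appear in all 4, SAM 2 and sham 13 in liver and brain, SAM 5 and sham 17 in thymus and spleen, sham 14 in liver, thymus and spleen, and sham 16 in brain. No label states outright that an equal number means the same rat, so the 24 libraries may come from only 9 animals, and the p-values below, which treat libraries as independent, may then be too small.

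Messenger RNA was counted per gene with poly(A)-based, strand-specific libraries. Totals ran from 12.9 to 20.1 M (mega) counts per library. A gene was tested where it passed the low-count filter in every tissue, which left 11020 of the 32883 genes in the table, all of them transcripts measurable in 4 very different organs. Genes that failed the filter in any of the 4 organs, such as most drug-metabolising enzymes of the liver and Cyp1b1, were not tested here. Tissue identity matched the labels: albumin (Alb) was at 99200 CPM (read counts per mega counts of the library, without TMM) or more in each liver library and at 65.3 CPM or less elsewhere, and Snap25, Rag1 and Cd79b marked brain, thymus and spleen in the same way. Among the exposed libraries, mitochondrial transcripts took 17.8% of liver SAM 1, where the remaining 5 libraries of that organ ranged from 5.71 to 8.07%, and brain SAM 1 and SAM 2 stood apart in the genes given last. Those 2 brain libraries differed from each other by 5.95 times the sampling noise, and from brain SAM 3 by 72.6 and 55.6 times. Leaving them out keeps SAM 3 as the only exposed brain library. Thymus sham 15, which stays in that fit, had 8.18% mitochondrial transcripts, against 2.95 to 5.64% in the other thymus libraries. Medians of gene lists that move by over 1.5 times without liver SAM 1, brain SAM 1 and brain SAM 2 are given both ways. In bulk tissue, fewer cells of a type and less RNA per cell cannot be told apart.

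PCBs are persistent chlorinated compounds. Some of them activate the aryl hydrocarbon receptor (AhR), others the receptors CAR and PXR, and non-planar ones act on calcium channels of the endoplasmic reticulum. Programs that nearly every cell can run are the ones a shared response could use. In the heat shock response the factor HSF1 binds heat shock elements, inverted repeats of the unit GAA, and drives the cytosolic chaperones that fold proteins. In the unfolded protein response, factors such as ATF6 and XBP1 act on the ER stress element and drive chaperones of the endoplasmic reticulum. The circadian clock runs in every organ: CLOCK and ARNTL act on E-boxes and drive the Per, Nr1d and PAR bZIP genes (Tef, Dbp, Hlf), so the time of day at sampling shifts these genes together in all tissues.

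Promoters are shown for 6 members of the chaperone, unfolded protein response and clock groups described below. They were picked, after their values were seen, because their promoters hold the element of their group. Each line gives the 250 bases before the start of the gene from RefSeq (assembly GRCr8), 5′ to 3′ on the strand of the gene, with capitals marking the match. They lie at chr8:50080264-50080513 (plus strand), chr12:10427118-10427367 (plus strand), chr19:41431142-41431391 (minus strand), chr3:38452766-38453015 (plus strand), chr7:23012294-23012543 (minus strand) and chr7:115206577-115206826 (plus strand). GAANNTTC, an inverted pair of heat shock units, was searched in Hspa8, Hsph1 and Dnajb1, the ER stress element in Hspa5 and Hsp90b1, and the E-box CACGTG in Tef, each on both strands.
Hspa8: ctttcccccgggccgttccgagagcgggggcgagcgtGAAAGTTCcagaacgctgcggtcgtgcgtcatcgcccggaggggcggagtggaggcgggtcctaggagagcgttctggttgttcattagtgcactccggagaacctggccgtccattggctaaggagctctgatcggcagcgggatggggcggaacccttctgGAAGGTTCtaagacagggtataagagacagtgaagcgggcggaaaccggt
Hsph1: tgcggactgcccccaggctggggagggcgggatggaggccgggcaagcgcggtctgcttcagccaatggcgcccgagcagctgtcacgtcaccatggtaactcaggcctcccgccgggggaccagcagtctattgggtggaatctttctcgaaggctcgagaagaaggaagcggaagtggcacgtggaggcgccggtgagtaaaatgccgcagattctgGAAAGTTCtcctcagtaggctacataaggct
Dnajb1: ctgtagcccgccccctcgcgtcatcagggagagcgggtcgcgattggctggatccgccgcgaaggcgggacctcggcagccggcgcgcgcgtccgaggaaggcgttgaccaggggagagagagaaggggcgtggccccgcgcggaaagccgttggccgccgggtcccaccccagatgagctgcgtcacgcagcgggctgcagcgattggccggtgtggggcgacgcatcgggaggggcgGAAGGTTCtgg
Hspa5: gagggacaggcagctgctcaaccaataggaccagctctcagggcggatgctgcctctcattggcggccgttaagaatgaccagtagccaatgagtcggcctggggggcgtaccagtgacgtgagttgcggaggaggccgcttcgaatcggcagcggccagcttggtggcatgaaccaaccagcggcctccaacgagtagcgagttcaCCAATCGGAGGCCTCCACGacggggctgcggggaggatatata
Hsp90b1: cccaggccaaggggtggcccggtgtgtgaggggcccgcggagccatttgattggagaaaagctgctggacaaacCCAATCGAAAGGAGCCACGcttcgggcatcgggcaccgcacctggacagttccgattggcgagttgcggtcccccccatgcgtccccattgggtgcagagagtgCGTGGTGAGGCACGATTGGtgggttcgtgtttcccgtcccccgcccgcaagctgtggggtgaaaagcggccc
Tef: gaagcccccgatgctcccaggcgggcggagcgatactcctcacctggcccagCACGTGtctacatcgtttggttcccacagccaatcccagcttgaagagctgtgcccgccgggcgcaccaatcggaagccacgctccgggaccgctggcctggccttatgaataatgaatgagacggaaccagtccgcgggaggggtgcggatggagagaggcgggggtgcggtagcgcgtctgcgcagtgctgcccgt
Of the heat shock and chaperone genes, 17 had a promoter in the table and 10 of them (58.8%) held GAANNTTC, against 7.23% of all 33469 promoters. For the unfolded protein response 7 of 19 (36.8%) held the ER stress element, against 0.0657% of all. For the clock 3 of 17 (17.6%) held CACGTG, against 5.59%. The lists were made of genes that these factors drive, so an excess was built in and says nothing about exposure. Members were counted by symbol and the background by promoter, so the shares are not in like units. A match describes these letters and does not show binding.

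The first comparison asked which genes differed in the same way in all 4 organs, through the exposure term of an additive model of tissue and exposure. No gene passed: edgeR called 0 of the 11020 genes (0%), with a lowest adjusted p of 0.0767, while 1153 (10.5%) had an unadjusted p under 0.05, of which 569 were higher (5.16%) and 584 lower (5.3%) in SAM. DESeq2 called 36 genes (0.327%), 14 higher and 22 lower, and limma voom called 6 (0.0544%). With 1 value per animal number, limma called 0 genes, with 1284 (11.7%) at an unadjusted p under 0.05. Without liver SAM 1, brain SAM 1 and brain SAM 2 the edgeR count was again 0, and 700 genes (6.35%) had an unadjusted p under 0.05. Shifts were small. The median log2 fold change of all genes was 0.01, and 46 genes lay beyond 1.5-fold in either direction. In no gene did the SAM libraries lie apart from the sham libraries in each of the 4 tissues (0%). They lay apart in at least 3 tissues in the same direction for 37 genes (0.336%), 24 of them lower and 13 higher in SAM.

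Counting only named genes that averaged 1 CPM or more in every tissue, the 20 with the lowest p were 8 higher and 12 lower in SAM, with edgeR adjusted p of 0.0767 to 0.225. All 20 were among the genes DESeq2 called. For 19 of them the difference had the same sign in all 4 tissues, against 17% of all genes, and for 16 the means per animal number did not overlap between the groups, against 3.88% of all genes, 2.29% lower and 1.6% higher (both shares follow in part from the choice by p). The higher genes were Cmtm7, Fbln2, Fn1, Iqcc, LOC100910979, Ppt2, Zfp512b and Med12. Among the lower ones were Kctd6, P2rx4, Tef, Osbpl6, AABR07033324.1, Maoa, Rdh14, Atp6ap2, Sms and a second locus named Hspa8.

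**Figure D1:**
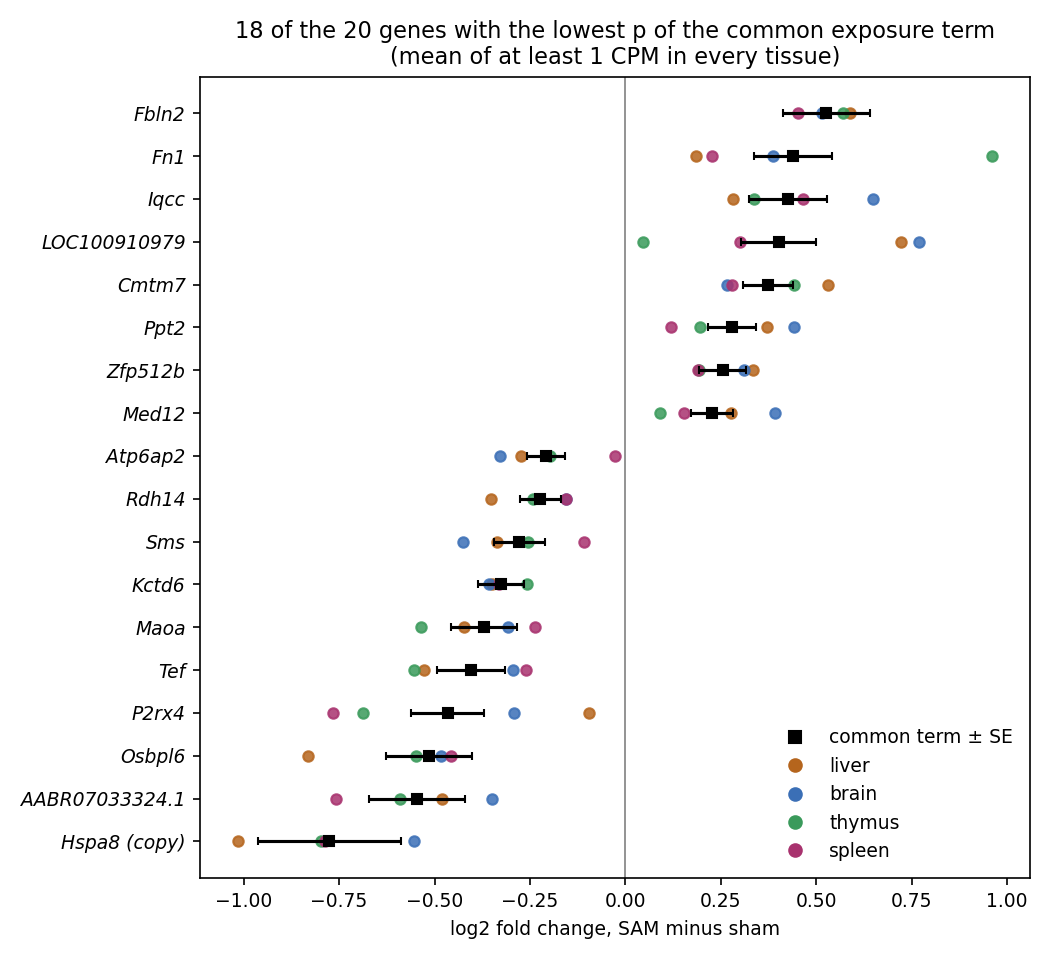
Log2 fold change, SAM minus sham, of 18 of the 20 genes with the lowest p of the common exposure term (mean of at least 1 CPM in every tissue): black squares with bars, common term ± SE over 24 libraries; coloured points, each tissue. For each of the 18 genes plotted, the points of all 4 tissues lie on 1 side of 0.

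Cmtm7 (ENSRNOG00000010986), a membrane protein of the MARVEL family with a known part in B cell receptor signalling, had the lowest p. In liver it was at 10.6, 10.1 and 10.3 CPM in SAM and at 6.88, 7.13 and 7.38 in sham (CPM scaled by TMM over the tested genes). In thymus the values were 74.6, 87.2 and 85.3 against 57.5, 59.2 and 65.1, and in spleen 60.3, 62.5 and 64.5 against 53.9, 52.5 and 48.0. The groups did not overlap in these 3 tissues. In brain, where Cmtm7 was lowest, they did (4.09, 5.37 and 3.15 against 3.18, 4.07 and 3.39). The common log2 fold change was 0.37 ± 0.06 (SE), with an edgeR adjusted p of 0.0767 and an interaction p of 0.476 for a difference between tissues. It lay between 0.34 and 0.41 when each animal number was left out, and Cmtm7 was the 1 gene that passed in edgeR without the brain libraries (adjusted p 0.0137).

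Kctd6 (ENSRNOG00000007817) encodes a substrate adaptor of cullin 3 ubiquitin ligases. Its liver libraries were at 38.4, 36.7 and 39.8 CPM in SAM and 43.9, 51.6 and 50.7 in sham. In thymus they were at 5.07, 4.45 and 4.93 against 5.76, 5.72 and 5.79, and in spleen at 5.21, 5.58 and 5.21 against 6.98, 5.95 and 7.28. Every SAM library lay below every sham library in these organs. Brain SAM 3, at 14.9 CPM, lay among the sham libraries (14.5, 15.1 and 16.9), while SAM 1 and SAM 2 were at 10.6 and 10.9. The log2 fold change of Kctd6 was -0.33 ± 0.06 (edgeR adjusted p 0.0767), and its 4 tissue values ran from -0.26 in thymus to -0.36 in brain.

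**Figure D2:**
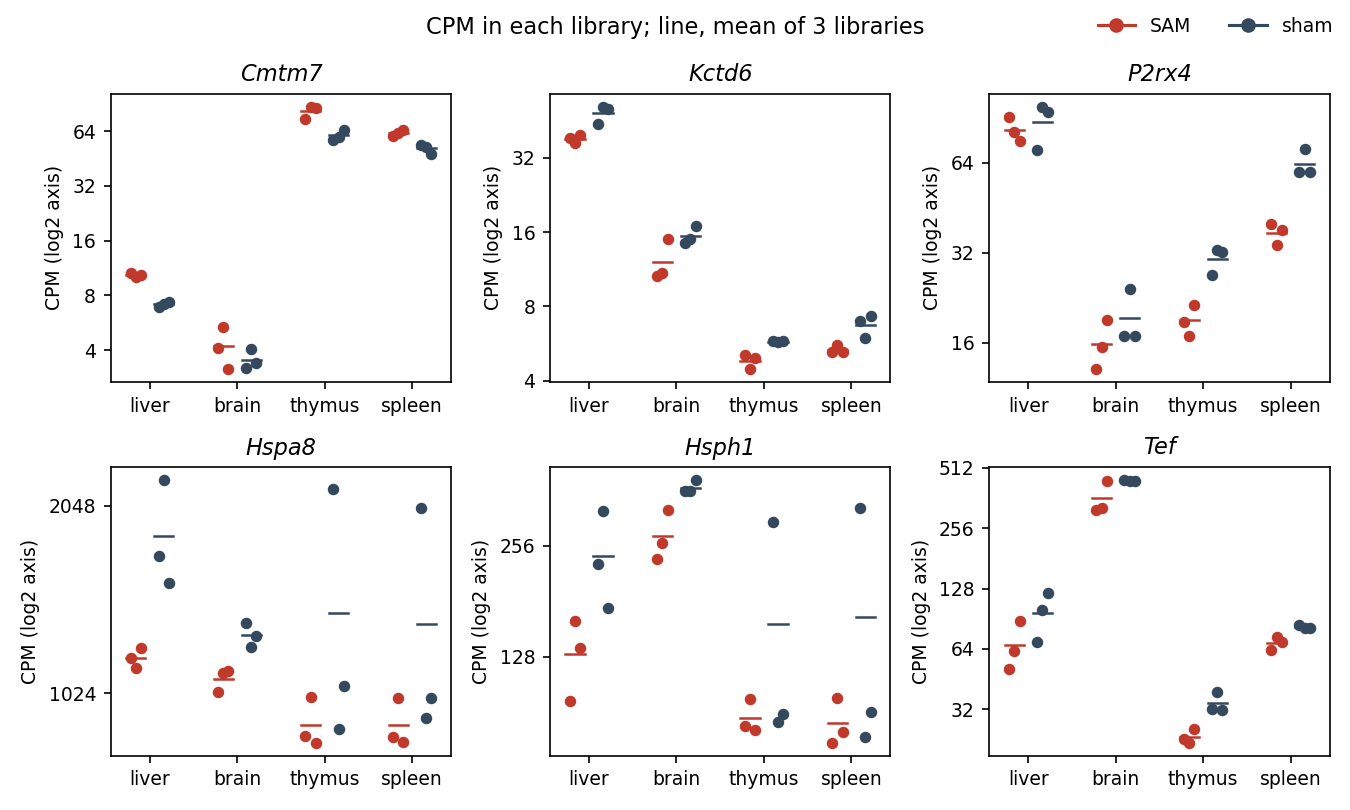
TMM-scaled CPM (log2 axis) of 6 genes in each of the 24 libraries, by tissue; red, SAM; dark, sham; lines, means of 3 libraries. Kctd6 and Cmtm7 keep the groups apart in liver, thymus and spleen, while for Hspa8 and Hsph1 a single sham library, number 14, stands high in thymus and spleen.

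Several other leading genes encode receptors and enzymes. P2rx4, an ATP-gated cation channel, had a log2 fold change of -0.47 ± 0.10 (edgeR adjusted p 0.197). Its size differed between organs, from -0.10 in liver to -0.69 in thymus and -0.77 in spleen, where SAM libraries were at 40.0, 34.0 and 38.1 CPM and sham at 59.6, 71.5 and 59.5. Osbpl6, an oxysterol-binding protein, was at -0.51 ± 0.11. Maoa, which degrades serotonin and noradrenaline, was at -0.37 ± 0.09, with thymus libraries at 6.09, 5.75 and 6.23 CPM in SAM and 8.75, 9.67 and 7.75 in sham. Sms, spermine synthase, was at -0.28 ± 0.07, Rdh14, a retinol dehydrogenase, at -0.22, and Atp6ap2, the prorenin receptor and a partner of the proton pump of lysosomes, at -0.21. Ppt2, a lysosomal thioesterase, was at 0.28 ± 0.06 and Med12, a subunit of the Mediator complex, at 0.23. The edgeR adjusted p of the 7 genes after P2rx4 lay between 0.213 and 0.225.

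Heat shock and chaperone genes were lower in SAM in most members. Of the 23 members tested, 21 were lower in SAM (47.8% of all genes were), 16 had an unadjusted p under 0.05 with lower values (5.3% of all genes) and none with higher values, and 0 were called by edgeR. DESeq2 called 2 of them, Chordc1 and the second Hspa8 locus. The median log2 fold change was -0.25, and it was negative in each organ, being -0.32 (liver), -0.23 (brain), -0.23 (thymus) and -0.34 (spleen). For 15 members it was negative in all 4. Every SAM library lay below every sham library for 8 liver (4.95% of all genes), 13 brain (14.2%), 1 thymus (5.85%) and 4 spleen values (4.91%) of the 23 members. None lay above in any organ, against 5.57, 10.4, 4.82 and 4.22% of all genes. With liver SAM 1, brain SAM 1 and brain SAM 2 left out, the median was -0.24 and all 23 members were negative.

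This shift leaned on sham number 14. Its 3 libraries held the highest value of their tissue for 15 of the 23 members in liver, 21 in thymus and 22 in spleen, against 9.17, 21.8 and 23.3% of all genes tested. Without number 14 the common median was -0.11, with 19 of 23 members negative and 6 at an unadjusted p under 0.05 (4.13% of all genes lower in that fit). The medians by tissue were then -0.21 in liver, -0.23 in brain, which has no library of that number, 0.00 in thymus and -0.04 in spleen. In liver and brain the mean of the list lay lower in every SAM library than in every sham library, with or without number 14. In thymus and spleen the remaining sham libraries overlapped with the SAM libraries. With any other animal number left out the median lay between -0.25 and -0.34. With 1 value per animal number, 9 members had an unadjusted p under 0.05 (5.96% of all genes lower in that fit).

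**Figure D3:**
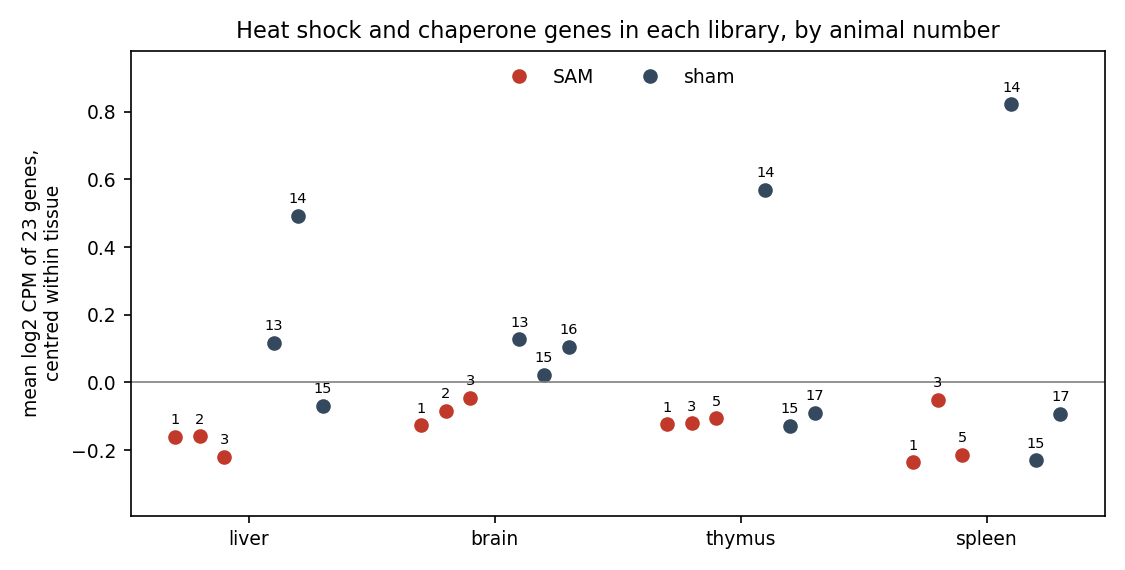
Mean log2 CPM of the 23 heat shock and chaperone genes in each library, centred within its tissue; red, SAM; dark, sham; digits, animal numbers from the labels. Sham 14 stands at 0.49 in liver, 0.57 in thymus and 0.82 in spleen, and the SAM libraries lie from -0.24 to -0.05.

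Hspa8 (ENSRNOG00000034066), the constitutive HSC70 that folds new proteins and uncoats clathrin vesicles, is the gene whose promoter is printed first. Its liver libraries were at 1167, 1123 and 1209 CPM in SAM and 1704, 2252 and 1537 in sham, and its brain libraries at 1029, 1104 and 1112 against 1328, 1217 and 1268. SAM was below sham throughout in both. In thymus the values were 874, 1009 and 854 against 2179 (number 14), 897 and 1051, and in spleen 871, 1006 and 854 against 2033 (number 14), 935 and 1008, so that the groups overlapped in both organs and number 14 alone stood high. The common log2 fold change was -0.50 ± 0.13 (edgeR adjusted p 0.275), and -0.23 without number 14. A second locus named Hspa8 (ENSRNOG00000032585), at 0.990 to 7.97 CPM, had -0.78 ± 0.19 (-0.44 without number 14), and the annotated copy Hsc70-ps2 had -0.58 ± 0.15 (-0.34 without it). Both are near-identical to HSC70 in sequence, so their reads may come from the main gene and their values are uncertain.

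The co-chaperones had lower values in the same organs. Dnaja1, which feeds clients to HSC70, was at 489, 506 and 572 CPM in SAM liver against 691, 830 and 663 in sham, and at 172, 188 and 194 against 240, 223 and 250 in brain. Groups were apart in both organs and in thymus. Its log2 fold change was -0.54 ± 0.15, and -0.24 without number 14. Hsph1, the nucleotide exchange factor HSP110, was at 97.0, 160 and 135 CPM in SAM liver against 228, 318 and 174, and at 235, 260 and 321 against 359, 360 and 386 in brain. Its log2 fold change was -0.78 ± 0.21, and -0.28 without number 14, whose thymus and spleen libraries were at 297 and 325 CPM against 75.05 to 99.4 in all others of those organs. Chordc1, a partner of HSP90, was at -0.48 ± 0.12, Hsp90ab1, the constitutive HSP90, at -0.25 ± 0.08, Dnajb1 at -0.33 ± 0.11, Dnajb4 at -0.27 ± 0.08 and Hspd1, the mitochondrial HSP60, at -0.20 ± 0.07. Without number 14 these 5 were at -0.25, -0.11, -0.12, -0.16 and -0.10 in the same order. The edgeR adjusted p of these 7 genes lay between 0.251 and 0.429. The strictly inducible Hspa1b was low in all tissues (0.366 to 11.2 CPM, except 16.9 in spleen of sham 14), and its log2 fold change turned from -1.07 ± 0.50 to 0.21 without number 14. Hsf1 itself was at 0.10 ± 0.07. Apart from Chordc1 and the second Hspa8 locus, the genes of this list were named after their values were seen.

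Genes of the unfolded protein response showed a smaller difference in the same direction. Of 24 members 20 were lower in SAM and 9 had an unadjusted p under 0.05 with lower values (5.3% of all genes), 0 being called. The median was -0.10, and -0.13 (liver), -0.14 (brain), -0.03 (thymus) and -0.13 (spleen) by organ. Herpud1, a component of ER-associated degradation, was at -0.29 ± 0.10 (edgeR adjusted p 0.397), and Hspa5, the ER chaperone BiP, at -0.18 ± 0.07 (edgeR adjusted p 0.441). Without sham number 14 they were at -0.19 and -0.09. Hsp90b1, whose promoter is printed above for its 2 ER stress elements, was at -0.16 ± 0.08 and was named after its value was seen. Without sham number 14 the list's median was -0.04, and by organ -0.06 (liver), -0.14 (brain), 0.03 (thymus) and 0.00 (spleen). Of the 24 members 15 were then negative and 1 had an unadjusted p under 0.05 (4.13% of all genes lower in that fit). That count was also 1 without the brain libraries (2.6%) and was 3 without SAM 1 (4.34%). It was 4 without sham 13 (3.85%), SAM 5 (4.78%) or the spleen libraries (4.95%). Sham 14 held the highest value of its tissue for 10 of the 24 members in liver, 16 in thymus and 19 in spleen. The targets of ATF4, the amino acid arm of the same response, had 8 of 18 members negative and a median of 0.01. With liver SAM 1, brain SAM 1 and brain SAM 2 left out, 10 were negative and the median was -0.0005.

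Clock genes were divided in sign. Of 23 members 13 were lower, 6 had an unadjusted p under 0.05 with lower values (5.3% of all genes), none with higher values, and 0 were called. Those 6 were Tef, Per2, Nr1d2, Hlf, Wee1 and Usp2. The median of the list was -0.04, and by organ -0.02 (liver), -0.29 (brain), -0.07 (thymus) and -0.14 (spleen). In the same order, 13, 16, 14 and 18 of the 23 members were negative. The common median was -0.07 without liver SAM 1, brain SAM 1 and brain SAM 2, and -0.09 without sham 14. Tef (ENSRNOG00000019383), a PAR bZIP factor, was at 22.8, 21.9 and 25.4 CPM in SAM thymus against 32.1, 39.1 and 31.8 in sham, and at 63.5, 73.5 and 69.0 against 84.3, 81.5 and 81.2 in spleen. The groups were apart in these organs. They overlapped in liver (51.0, 62.4 and 87.9 against 69.3, 100.3 and 121) and in brain, where SAM 3 (441) lay level with sham (444, 439 and 441) and SAM 1 and SAM 2 were at 315 and 324. The log2 fold change of Tef was -0.41 ± 0.09 (edgeR adjusted p 0.213). Per2 was at -0.36 ± 0.13, Nr1d2 at -0.37 ± 0.15 and Hlf at -0.48 ± 0.20 (edgeR adjusted p 0.422 to 0.441). Hlf, Wee1 and Usp2 were named after their values were seen.

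Nr1d1 and Dbp, which swing most over the day, had similar log2 fold changes but wide errors (-0.40 ± 0.24 and -0.39 ± 0.26), since animals of 1 group differed widely: Dbp in liver was at 9.15, 16.2 and 99.6 CPM in SAM and 21.5, 47.0 and 118 in sham. Per1, a repressor, was at 0.05 ± 0.13. Arntl, an activator, was at 0.07 ± 0.11, with 0.44 in liver and -0.34 in brain. The count of 6 was 5 without sham 14 (4.13% of all genes lower in that fit). It was 3 without SAM 2 (5.16%), sham 15 (3.97%) or the spleen libraries (4.95%). It was 2 without the thymus libraries (4.34%). No label gives the hour of sampling, and its part in these values was not tested. Glucocorticoid receptor targets, which also follow a daily rhythm, had 16 of 21 members lower and a median of -0.11, or -0.06 without liver SAM 1, brain SAM 1 and brain SAM 2. Of these 2 had an unadjusted p under 0.05 with lower values (5.3% of all genes), and 0 without sham 14 (4.13%). Tsc22d3 (GILZ) was at -0.44 ± 0.14 (edgeR adjusted p 0.352), and -0.26 without sham 14, and Fkbp5 was at -0.18 ± 0.09, and -0.09 without it. Mt1, a metallothionein of the same list, was at 0.57 ± 0.21 (edgeR adjusted p 0.431).

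**Figure D4:**
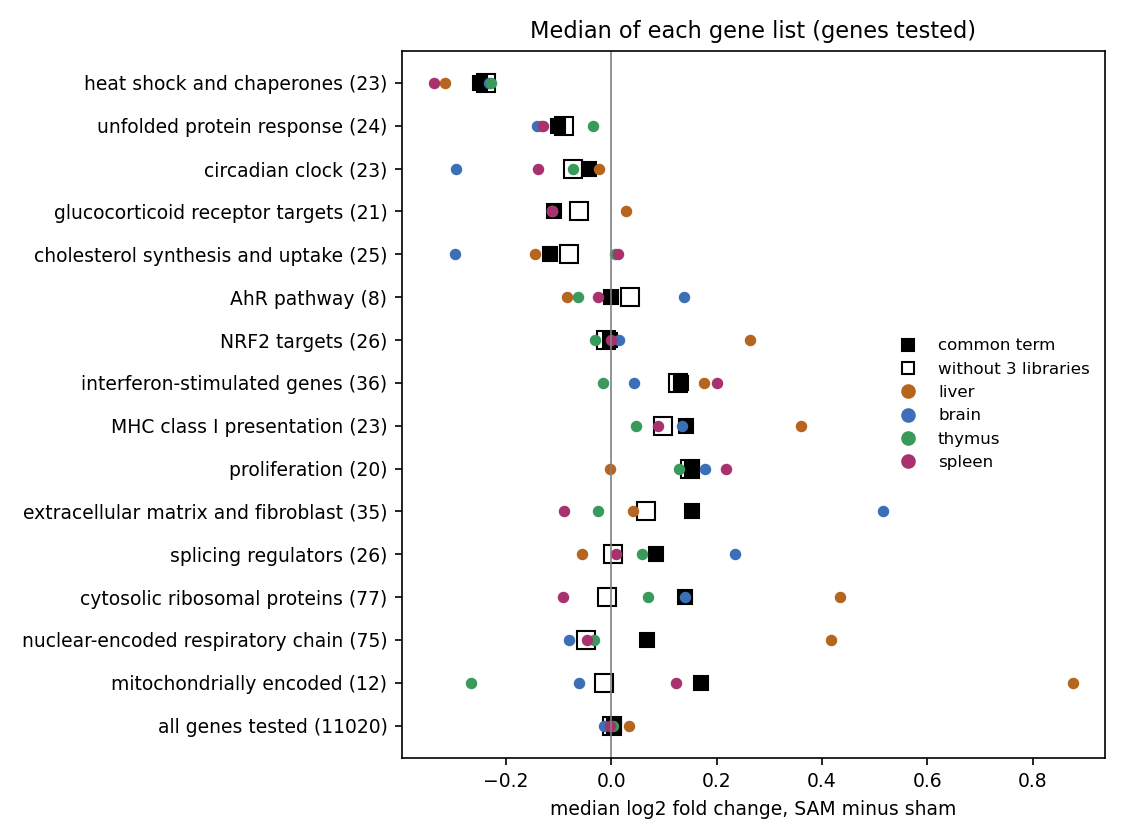
Median log2 fold change, SAM minus sham, of 15 gene lists and of all 11020 genes (number of genes tested in brackets): filled squares, common term; open squares, without liver SAM 1, brain SAM 1 and brain SAM 2; points, each tissue. With all libraries, the medians of heat shock and unfolded protein response genes lie below 0 in every tissue. Without sham 14, which the open squares keep, both lists stayed negative in liver and brain. The heat shock medians were then -0.003 in thymus and -0.04 in spleen, and those of the unfolded protein response 0.03 and -0.002. Positive medians of other lists differ by tissue and are not confined to liver or brain (cytosolic ribosomal proteins, 0.07 in thymus).

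Genes of the extracellular matrix and fibroblasts were mostly higher in SAM, with 26 of 35 positive (52.2% of all genes were), 6 at an unadjusted p under 0.05 and higher values (5.16% of all genes), 0 called and a median of 0.15. Fbln2, a fibulin of elastic fibres, and Fn1, fibronectin, had positive values in all 4 organs. Fbln2 had tissue values of 0.45 to 0.59 and a log2 fold change of 0.53 ± 0.11 (edgeR adjusted p 0.213). Fn1 in thymus was at 144, 150.5 and 219 CPM in SAM against 91.3, 76.0 and 96.8 in sham, and in brain at 80.7, 79.2 and 125 against 73.7, 69.8 and 73.8. The groups were apart in both. Its log2 fold change was 0.44 ± 0.10 (edgeR adjusted p 0.225) and 0.27 without the thymus libraries. Col1a1 (0.65 ± 0.19) and Thbs1 (0.66 ± 0.29), chosen after their values were seen, were led by brain, at 1.34 and 2.42. The list as a whole also leaned on brain: its median there was 0.52, with 22 of 35 members apart and higher (10.4% of all genes). Without the brain libraries the median was -0.01, with 2 members at an unadjusted p under 0.05 (2.15% of all genes higher in that fit). Without liver SAM 1, brain SAM 1 and brain SAM 2 it was 0.07. Without sham 14 it was 0.24, with 12 such members (4.65% of all genes higher in that fit), a count also reached without SAM 1 (4.67%).

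Antigen presentation by MHC class I showed 19 of 23 members higher, 8 at an unadjusted p under 0.05 and higher values (5.16% of all genes), 0 called and a median of 0.14. Psmb9, a subunit of the immunoproteasome, was at 0.31 ± 0.10 (edgeR adjusted p 0.385), with liver at 0.72 and thymus at 0.10. The count was 4 without sham 13 (2.95% of all genes higher in that fit) and 5 without the liver (6.36%) or the brain libraries (2.15%). The largest value of the list, 1.39 ± 0.41 for RT1-CE16 (ENSRNOG00000047706), came from a single animal number. In SAM 3 this class I gene was at 88.3 (liver), 8.99 (brain), 44.3 (thymus) and 91.4 CPM (spleen). In the other 20 libraries it was at most 14.5, 1.09, 13.97 and 19.5 CPM in the same organs, and without SAM 3 the log2 fold change was 0.02. RT1 genes are near-identical copies, and how their reads were split was not tested. A second locus of that name (ENSRNOG00000059770) was at -0.41 ± 0.31.

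Interferon-stimulated genes were positive in 30 of 36, with a median of 0.13 that varied by organ. It was 0.18 in liver and 0.20 in spleen, 0.04 in brain and -0.01 in thymus, where 21 were negative. There were 2 at an unadjusted p under 0.05, Irf1 and Ifi47, against 5.16% of all genes. That count was 6 without SAM 1 (4.67% of all genes higher in that fit) and 5 without sham 15 (3.2%). It was 4 without sham 14 (4.65%), the liver (6.36%) or the brain libraries (2.15%). Irf1, the interferon regulatory factor that induces many of them, had SAM above sham in liver, brain and spleen. Its spleen libraries were at 207, 165 and 193 CPM against 158, 149 and 160, and its brain libraries at 11.6, 11.97 and 12.3 against 9.05, 10.4 and 8.67. The log2 fold change was 0.35 ± 0.09 (edgeR adjusted p 0.277). LOC100910979, annotated as an interferon-inducible GTPase, was at 0.40 ± 0.10 (edgeR adjusted p 0.225), with 0.72 in liver, 0.77 in brain and 0.05 in thymus.

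Proliferation genes were positive in 18 of 20, with a median of 0.15, near 0 in liver, and 3 members at an unadjusted p under 0.05 with higher values (5.16% of all genes). These included Mcm2 (0.17 ± 0.06) and Mcm7 (0.22 ± 0.09) of the replicative helicase (edgeR adjusted p 0.431 and 0.437). Without sham 14 that count was 10 (4.65% of all genes in that fit) and the median 0.23, and without SAM 3 they were 1 (6.49%) and 0.09. Of the splicing regulators 19 of 26 were positive and 6 had an unadjusted p under 0.05 with higher values (5.16% of all genes). Hnrnpdl, an RNA-binding protein, was at 0.14 ± 0.05, with tissue values from 0.11 to 0.17 (edgeR adjusted p 0.382). The median of that list was 0.08, and 0.00 without liver SAM 1, brain SAM 1 and brain SAM 2, with 2 such members (2.85% of all genes). There were 12 such members without SAM 3 (6.49%) or the liver libraries (6.36%), and 2 without SAM 1 (4.67%) or the brain libraries (2.15%).

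Some lists had a one-sided common term that differed in sign or size by organ. Cytosolic ribosomal proteins were positive in 74 of 77 with a median of 0.14, nuclear-encoded respiratory chain genes in 61 of 75 with 0.07, and mitochondrially encoded genes in 12 of 12 with 0.17. The liver medians were the highest of the 4 organs, at 0.43, 0.42 and 0.88. Ribosomal proteins were also positive in brain (75 of 77, median 0.14, with 28 apart and higher against 10.4% of all genes) and thymus (72 of 77, median 0.07), and negative in spleen (76 of 77, median -0.09). Without liver SAM 1, brain SAM 1 and brain SAM 2 the medians were -0.01, -0.05 and -0.01. Cholesterol synthesis genes were lower in 22 of 25, with 8 at an unadjusted p under 0.05 (5.3% of all genes), among them Msmo1 and Acat2 (both -0.18 ± 0.07). Their medians were -0.15 in liver and -0.30 in brain but 0.01 in both thymus and spleen. The count of 8 was 0 without the brain libraries (2.6% of all genes lower in that fit) and 2 without the liver libraries (6.37%). It was 3 without SAM 2 (5.16%) or sham 13 (3.85%) and 4 without sham 14 (4.13%).

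Genes that respond to foreign compounds and are expressed in all 4 organs showed no common shift at the precision of these data. In the AhR pathway 4 of 8 members were higher and 4 lower, with a median of 0.00 and 0 members at an unadjusted p under 0.05. The median was 0.03, with 6 members higher and 2 lower, when liver SAM 1, brain SAM 1 and brain SAM 2 were left out. Tiparp, a direct target of AhR, was at 0.06 ± 0.13 and Nqo1, a quinone reductase, at 0.00 ± 0.12, with 0.38 in liver and -0.36 in thymus. Ahr itself was at -0.18 ± 0.09 (edgeR adjusted p 0.495). The NRF2 targets, antioxidant genes, had 13 members on either side of 0, with Hmox1, haem oxygenase, at 0.19 ± 0.16. By organ 18 of the 26 were positive in liver and 20 negative in thymus. CAR and PXR targets and partners had 8 of 12 members lower (median -0.07). By organ 10 of the 12 were negative in thymus, 8 in spleen, 6 in liver and 5 in brain. Without the thymus libraries the common median of this list was 0.04. Por, the electron donor of the cytochromes P450, was at -0.05 ± 0.07.

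Markers of other cells were examined beside these lists. Genes of the erythroid and blood list were positive in 7 of 8 with a median of 0.36 and 0 at an unadjusted p under 0.05. Their summed level in liver was 1462 to 3236 CPM in SAM against 1050 to 1356 for the controls, while elsewhere the ranges overlapped. T cell genes were positive in 6 of 7 (median 0.21, and 0.07 without SAM 2). Of the 7, 2 had an unadjusted p under 0.05 with higher values (5.16% of all genes). The T cell sums in brain were 28.4 to 40.2 CPM in SAM and 28.0 to 31.1 in sham. Macrophage and microglial genes were positive in 14 of 16 (median 0.07), with 0 at an unadjusted p under 0.05. In thymus 15 of 16 were negative, and the common median was -0.06 without SAM 2 and -0.01 without the brain libraries. Not all marker lists leaned higher. B cell and plasma cell genes were lower in 4 of 5, astrocyte genes in 5 of 6 and thymic epithelium and keratin genes in 3 of 5. Of the thymic epithelium list 2 had an unadjusted p under 0.05 with lower values (5.3% of all genes), and 5 of 5 were negative in thymus. The part of blood or immune cells in the values of the class I, interferon and proliferation lists was not tested.

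The second comparison asked whether the exposure difference varied between the organs, with the 3 interaction terms tested together. edgeR called 0 of the 11020 genes (0%), with a lowest adjusted p of 0.0796, while 1145 (10.4%) had an unadjusted p under 0.05. DESeq2 called 199. The 5 genes with the lowest p show what the additive model averages over. Dusp6, a phosphatase of the ERK kinases, was at 150, 93.0 and 92.3 CPM in SAM liver against 34.6, 56.4 and 56.6 for the controls. Its log2 fold change was 1.18 there, -0.15 to -0.26 elsewhere and 0.11 ± 0.15 as the common term. Spp1 (osteopontin), Svil (supervillin), Mpzl2 and Frzb, a secreted Wnt antagonist, were higher in brain, at 5.90, 2.03, 1.45 and 2.43. Spp1 in brain was at 109, 67.9 and 2.52 CPM in SAM 1, 2 and 3 and at 0.249 to 1.49 in sham, and Svil at 148, 129 and 42.9 against 25.9 to 26.7. These differences were largest in the libraries of SAM 1 and SAM 2. For the leading genes of the common term the interaction p ranged from 0.0145 (Fn1) and 0.0173 (LOC100910979) to 0.948 (Kctd6) and 0.981 (Fbln2), and a high p does not show that the organs responded alike.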

How the data were processed

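The authors deposited 1 table of raw read counts per gene and library; STAR 2.2.1 and rn6 are named in the submitters' processing notes, while for counting tool, annotation and strand setting the entry is: not given in the sources used here. Groups came from the sample labels. Genes passing filterByExpr in each tissue were scaled by TMM and fitted with edgeR 4.0.16 (R 4.3.3) by the quasi-likelihood test, with tissue and exposure as terms and Benjamini-Hochberg adjustment over 11020 genes at 0.05. The interaction was tested with 3 added terms. DESeq2 1.42.0, limma 3.58.1, another filter, animal-number means and left-out libraries, animals and tissues were alternatives. The tests were tried on simulated counts. Genes described had to carry a symbol and average 1 CPM or more in each tissue, and were the 20 with the lowest p, the 2 lowest of each list, the 5 lowest of the interaction and a fixed set of sentinels; others are said to be chosen later. The members and lists were chosen with earlier results of these data known. Replicate pairs differed by at least 5.95 times the sampling noise. Whether replicates are separate animals is stated only through their numbers, so p-values measure the spread between these libraries. Some genes that the naming rule picks are not reported here.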

Additional observations from a re-analysis of the deposited data

Results flagged for a closer look

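In 5 of the named genes every SAM library lay on one side of the sham libraries in 1 organ and on the other side in another, so the common term averaged over opposite differences. Over all 11020 genes tested the same held for 388 (3.52%). The pairwise difference between those organs was not tested. The share among the named genes was not computed, so the 5 are not shown to exceed the share of all genes. Dusp6, Spp1 and Mpzl2 were among the 5 genes named for the lowest interaction p, a choice that favours such genes. Dusp6, the ERK phosphatase, had log2 fold changes of 1.18 in liver, -0.26 in thymus and -0.15 in spleen. Spp1, osteopontin, was at 5.90 in brain, where SAM 1 and SAM 2 were highest, and at -1.17 in spleen. Mpzl2, an adhesion protein, was at 1.45 in brain and -0.33 in thymus. Ass1, the argininosuccinate synthase of the urea cycle, was at 0.63 in liver and -0.46 in brain. Wee1, a kinase that holds back mitosis and a clock output gene, was at -0.35 in liver and 0.10 in thymus. Over all 4 organs together, the interaction test of edgeR gave an adjusted p of 0.0796 for Dusp6, Spp1 and Mpzl2 and called none of the 5.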

How the results depend on the processing

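No gene passed for the common term or the interaction in edgeR, and these counts rose under some alternatives. For the common term DESeq2 called 36 (14 higher, 22 lower), no count filter 4 (all higher), limma voom 6 (1 higher, 5 lower) both without and with the replicate block by animal number, and edgeR without the brain libraries 1. Leaving out 1 library or animal gave 0 to 7, with 7 without brain SAM 3, 4 without liver sham 13, 2 without liver SAM 1 and 1 without brain sham 15 or animal sham 13. For the tissue by exposure interaction DESeq2 called 199, no filter 15 and the fit without liver SAM 1, brain SAM 1 and brain SAM 2 called 3. Leaving out 1 library gave 0 to 751, with 751 without brain SAM 3, 229 without liver SAM 2, 13 without liver SAM 1, 7 without brain sham 16, 2 without brain sham 13 and 1 without thymus sham 14. Scaling by TMM within each tissue, chosen after seeing the data, called 0 in both tests. On the block: 25 same-numbered pairs of libraries had residual correlations of -0.0104 to 0.19 (median 0.0613, 11 over 0.1) and other pairs -0.229 to 0.19 (median -0.0257). That 15 of 23 libraries correlated best with their own number is a hint of pairing from the data. The numbers were taken to pair the samples only if every such pair exceeded 0.1, which did not hold. That rule is strict, and failing it does not show that equal numbers are separate rats. RT1-CE16, for example, stood high in every SAM 3 library and in no other. If equal numbers are the same rat, the p-values by library may be too small.

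Some values changed sign. Without the brain libraries the log2 fold change of Nqo1 was -0.0293, and Per1 was at -0.01195, Spp1 at -0.49, Mpzl2 at -0.19 and Frzb at -0.032. Without the liver libraries Nqo1 was at -0.148, Arntl at -0.0377 and Dusp6 at -0.21. Without the 3 libraries Per1 was at -0.00997, Spp1 at -0.29, Mpzl2 at -0.062 and Hsf1 at -0.0047. Nqo1 was at -0.00513 in DESeq2, -0.00901 with no filter and -0.0237 with 1 value per animal number, and Mpzl2 at -0.082 in voom and -0.084 with the block. Leaving out 1 library or animal moved Por over -0.11 to 0.0043, Per1 over -0.086 to 0.20, Tiparp over -0.035 to 0.16, Nqo1 over -0.067 to 0.058 and Hspa1b over -1.44 to 0.21. The cause was not tested.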
